A study of Mus musculus with 9 samples.

Results

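The direct comparison of 2 ways of purifying one baculoviral vector covered 6 of the 9 arrays of the series: 3 from mice given vector purified by membrane chromatography followed by high-speed centrifugation (MC+HS) and 3 from mice given vector purified by high-speed centrifugation alone (HS). The arrays were chosen by their sample titles, and all 45037 probe sets that were not controls entered the comparison. All mice were adult male BALB/c, an immunocompetent inbred strain. The vector was BV-HSVtk, a baculovirus, which is an insect virus that enters mammalian cells without multiplying in them. Each HS and MC+HS mouse received 100000000 viral particles in 10 µL in the striatum per hemisphere, and the injected tissue was collected on day 2. The remaining 3 mice were mock injected with Sf9 insect cell medium that held no virus and had gone through the MC+HS purification, and their level is given beside each gene. No mock medium taken through HS alone is described in the labels, so the purification of the mock preparation matches only 1 of the vector groups. Each array came from 1 mouse, so n = 3 mice per group, and n = 2 for HS where HS replicate 1 is left out.

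HS replicate 1 was unlike the 8 remaining arrays, so the differences between preparations are given both with it (all arrays) and without it. Its median correlation with the other arrays was 0.805, against 0.972 to 0.982 for those, and its log2 signals spread with an SD of 1.54 where the others had 2.17 to 2.39. The ratio of the hybridization controls bioD and bioC was 0.677 on this array and 3.35 to 3.67 on the others, and the 3'/5' ratio of Gapdh was 2.00 where the others had 0.865 to 0.932. Relative to the mock mean, markers of striatal medium spiny neurons averaged -2.10 on this array and -0.25 to 0.18 on the others, and astrocyte identity genes averaged -2.07 against -0.08 to 0.27. The median standard deviation of a gene within a group was 0.561 for HS, 0.107 for the 2 other HS arrays, 0.169 for MC+HS and 0.157 for mock. Median signals ran from 147 to 263 units. On the mock arrays the striatal markers averaged 11.46 and pan-neuronal genes 12.35 on the log2 scale, so the defining markers of the labelled tissue were present.

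Baculovirus particles carry DNA and envelope proteins that innate sensors of mammalian cells can detect. Such detection leads to type I interferon, which switches on antiviral genes through ISGF3, and to NF-kB activity, which drives chemokines and cytokines that draw leukocytes into the brain. Immediate early genes are a separate programme: they are transcribed within minutes of synaptic activity or injury and encode transcription factors and feedback phosphatases. Levels are given throughout as log2(signal + 16) after the array medians were aligned, and each difference is MC+HS minus HS on that scale, so 1 unit is a doubling. Intervals are 95% confidence intervals for a single gene and are not widened for the number of genes, and a gene is said to rise or fall only at a limma Benjamini-Hochberg adjusted p under 0.05.

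Across the whole array few differences between the preparations passed the threshold, with or without HS replicate 1. With all arrays limma called 0 probe sets higher and 0 lower in MC+HS (0% of 45037 each), the smallest adjusted p was 0.813, and 1316 probe sets (2.92%) had an unadjusted p under 0.05. Without HS replicate 1, 1 probe set was called higher (0.00222%) and 0 lower (0%), while 3748 (8.32%) had an unadjusted p under 0.05. The called probe set measures Arap2. Taking the brightest probe set for each of 18193 genes, the interval lay wholly inside plus or minus 1, so that a 2-fold difference fell outside it, for 15626 genes (85.9%) without HS replicate 1, against 49.8% with it. Of all genes, 1 (0.0055%) was called higher, the interval lay above 0 for 630 (3.46%) and below 0 for 658 (3.62%), and the groups did not overlap for 2101 with MC+HS higher (11.5%) and 2322 with MC+HS lower (12.8%). With all arrays the interval counts were 239 (1.31%) and 152 (0.835%). The median half-width of an interval over all probe sets was 0.456 without HS replicate 1 and 0.720 with it.

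The difference also moved with brightness. Without HS replicate 1 the median difference was 0.284 in the dimmest quintile of probe sets, 0.00024 in the middle quintile and -0.080 in the brightest. When the signals were scaled to one median before the pseudocount of 16 was added, those medians were 0.035, -0.0012 and -0.049. In the brightest quintile 677 of 9008 intervals lay below 0 and 80 above, so a small negative value in a bright gene is common in this comparison.

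**Figure D1:**
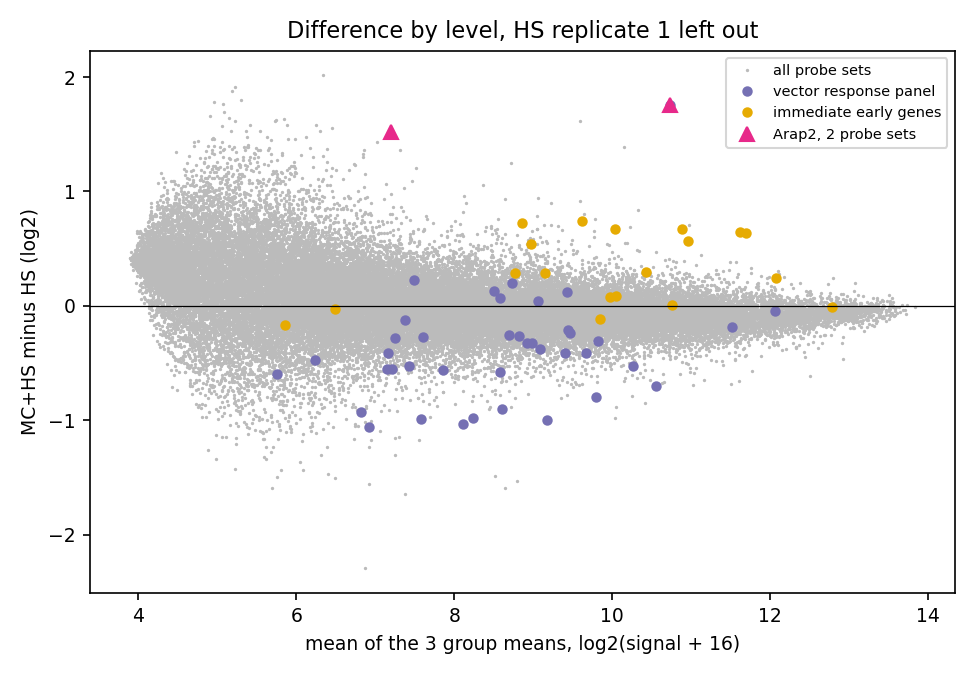
MC+HS minus HS difference (log2, vertical axis) against the mean of the 3 group means (log2 of signal + 16, horizontal axis) for each probe set without HS replicate 1. Arap2 stands at 1.76 and 1.52 for 2 of its probe sets, most of the vector response panel lies below 0, and 15 of 19 immediate early genes lie above 0.

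Arap2 encodes a GTPase-activating protein for the small GTPase Arf6, which acts in membrane traffic and cell adhesion. Its brightest probe set read 10.13, 9.48 and 9.69 on the HS arrays, 11.48, 11.34 and 11.21 on the MC+HS arrays, and 11.34, 11.32 and 11.13 on the mock arrays. All 3 HS arrays lay below all 6 others, and the MC+HS and mock arrays overlapped. The low reading of HS replicate 1 is not particular to Arap2, because bright probe sets tended to be low on that array. In the brightest quintile the median difference was 0.363 with HS replicate 1 and -0.080 without it. The deposited signals before any step were 1106, 787 and 1286 for HS, 2606, 2837 and 2341 for MC+HS and 2371, 2764 and 2113 for mock. Arap2 was 3.39-fold higher in MC+HS without HS replicate 1 (95% interval 2.85 to 4.03; difference 1.76 ± 0.11, SE; limma adjusted p = 0.000622). With all arrays it was 2.99-fold higher (interval 2.10 to 4.25; difference 1.58 ± 0.23), with an adjusted p of 0.813. Beside mock without HS replicate 1, the HS level fell by 1.68 (adjusted p = 4.99e-05), while MC+HS differed from mock by 0.08 (interval -0.14 to 0.30, adjusted p = 0.868).

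Other probe sets of Arap2 were less clear. The next brightest read 8.06, 6.10 and 6.38 in HS, 7.72, 7.68 and 7.88 in MC+HS, and 7.33, 7.80 and 7.62 in mock. HS replicate 1 was the highest of the 9 arrays and the 2 other HS arrays below every MC+HS and mock array, which gave a difference of 1.52 (interval 1.09 to 1.95, adjusted p = 0.231) without HS replicate 1 and 0.91 (interval -0.08 to 1.90) with it. The remaining probe set, which was dim, gave 0.42 (interval -0.31 to 1.16) and -0.10. The promoter window of Arap2 is shown because it is the gene whose call separates the preparations. It covers 250 bases before and 50 after the start of the gene, from RefSeq at chr5:62766128-62766427 of GRCm38.p6, minus strand.
Arap2: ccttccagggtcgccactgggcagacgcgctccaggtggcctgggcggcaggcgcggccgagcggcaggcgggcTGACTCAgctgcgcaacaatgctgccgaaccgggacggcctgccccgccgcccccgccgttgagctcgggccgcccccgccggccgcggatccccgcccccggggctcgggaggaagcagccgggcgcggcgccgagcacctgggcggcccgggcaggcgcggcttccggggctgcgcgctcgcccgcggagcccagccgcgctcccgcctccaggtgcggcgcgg
The capitals mark an AP-1 motif (TGANTCA), 176 bases before the start. This motif stood in 7.81% of 32851 mouse promoter windows of the same length, on either strand, and the match says nothing on its own of what binds there. Arap2 was past the threshold in 19 of 21 alternatives without HS replicate 1, with differences of 1.35 to 1.86, and in 2 of 22 with all arrays, with differences of 0.935 (arrays scaled to one spread) to 1.76.

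**Figure D2:**
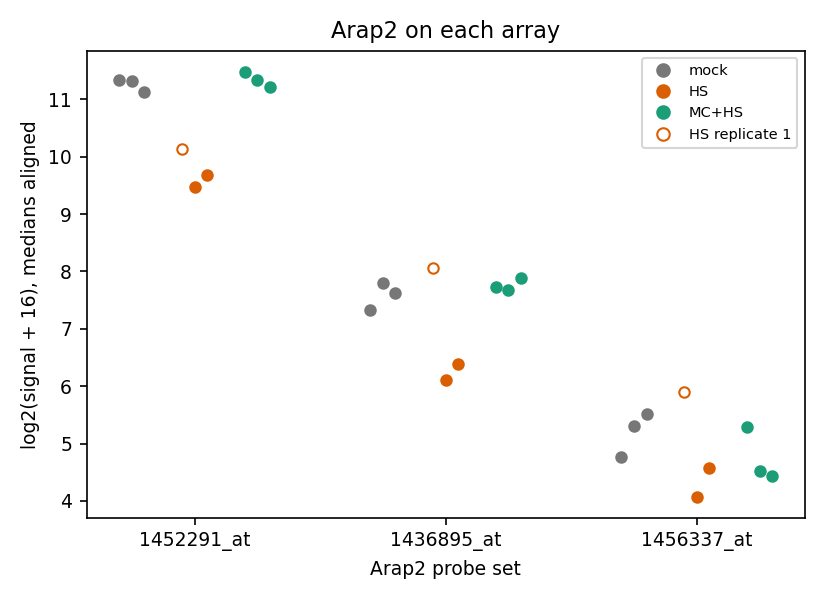
Level of Arap2 (log2 of signal + 16, medians aligned) on each of the 9 arrays for its 3 probe sets, with HS replicate 1 as an open circle. For the brightest probe set the HS arrays lie between 9.48 and 10.13 and every other array between 11.13 and 11.48.

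The genes with a large response to the vector were described through a panel of 40 genes. An earlier analysis of these same arrays had named them for differing from mock or between the preparations, so the panel's direction is not independent evidence. With all arrays 28 of the 40 were called higher than mock in HS and 25 in MC+HS, and 3 and 0 were called lower. Both vector groups stood far from mock without HS replicate 1. In that fit 34 of the 40 were called higher than mock in HS and 34 in MC+HS (2.47% and 1.95% of all genes). In the same fit 6 and 5 were called lower (0.28% and 0.236%). The median panel gene was 2.84 above mock in HS and 2.58 in MC+HS. Between the preparations the median difference was -0.40, with 33 genes lower in MC+HS and 7 higher, set against a median of -0.020 over all genes. The interval lay below 0 for 15 of 40, above 0 for Arap2 alone, and inside plus or minus 1 for 16. With all arrays the median was -0.19, 7 intervals lay below 0 and 1 above. Leaving out HS replicate 3 as well reduced the 15 to 4 and leaving out HS replicate 2 to 7, with medians of -0.33 and -0.45. Leaving out MC+HS replicate 3 reduced it to 10 (median -0.34). In the fit of only the 5 vector arrays 23 of 40 lay below 0, where 3.67% of all genes did.

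**Figure D3:**
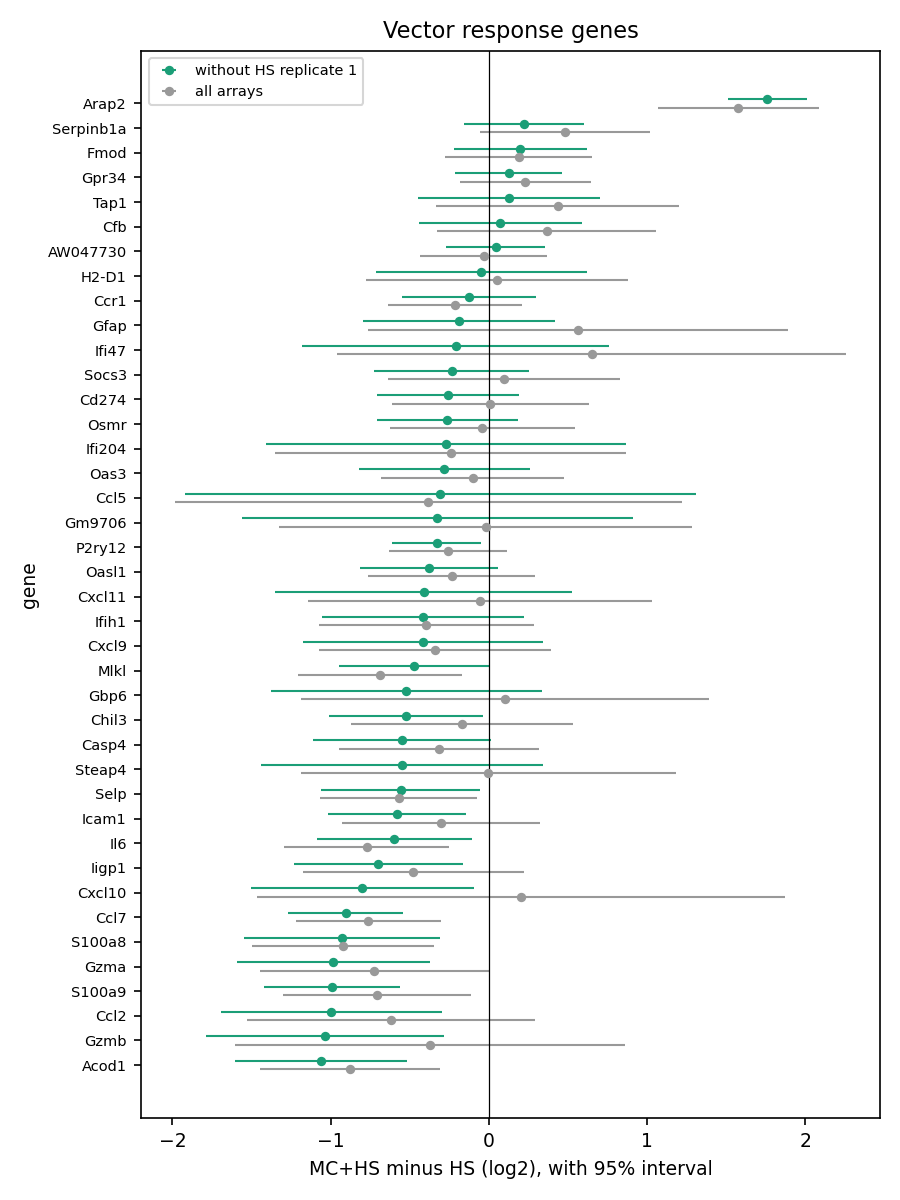
MC+HS minus HS difference (log2) with its 95% interval for the 40 panel genes, without HS replicate 1 (green) and with all arrays (grey). Acod1, Gzmb, Ccl2 and S100a9 sit near -1, Arap2 at 1.76, and most other intervals include 0.

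Chemokines are small proteins that draw leukocytes along a gradient. Of 21 measured without HS replicate 1, 18 were lower and 3 higher in MC+HS, with a median of -0.31. The interval lay below 0 for 5 and above 0 for 0. In that fit 15 were called above mock in each vector group, against 2.47% of all genes in HS and 1.95% in MC+HS. With all arrays the median was -0.12, 2 intervals lay below 0, and 9 in HS and 6 in MC+HS were called above mock. Without HS replicate 3 as well 2 of 21 lay below 0, and without MC+HS replicate 3 it was 3. Ccl7, which draws monocytes, read 9.89, 10.14 and 10.50 in HS, 9.45, 9.46 and 9.35 in MC+HS, and 5.93, 6.34 and 5.93 in mock. The groups did not overlap, and both stood far above mock. Ccl7 was 1.87-fold lower in MC+HS without HS replicate 1 (95% interval 1.45 to 2.41, adjusted p = 0.267) and 1.69-fold lower with all arrays (difference -0.76, interval -1.22 to -0.31). Ccl2, which acts on the monocyte receptor CCR2, read 9.84, 10.82 and 11.12 in HS, 10.19, 9.98 and 9.75 in MC+HS, and 6.22, 7.41 and 6.17 in mock. HS replicate 1 lay inside the MC+HS range, and the difference was -0.99 (interval -1.69 to -0.30) without it and -0.62 (interval -1.53 to 0.29) with it. For Ccl5, which draws T cells and NK cells, the HS arrays read 11.95, 11.65 and 11.80, the MC+HS arrays 11.44, 11.37 and 11.45, and mock 4.68, 8.27 and 6.06. The spread of the mock arrays widened its interval, which ran from -1.92 to 1.31 around -0.31 although HS and MC+HS did not overlap.

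Cxcl10 draws T cells through CXCR3 and is induced by interferon and NF-kB together. Its HS arrays read 8.56, 11.41 and 11.73, its MC+HS arrays 10.97, 10.81 and 10.55, and its mock arrays 6.35, 7.79 and 6.94. HS replicate 1 was the lowest vector array and the 2 other HS arrays the highest, so the sign turned with that array: -0.80 (interval -1.51 to -0.09) without it and 0.20 (interval -1.46 to 1.87) with it. The promoter window is shown as a responder that carries the motifs of both pathways, at chr5:92348840-92349139 of GRCm38.p6, minus strand, from RefSeq.
Cxcl10: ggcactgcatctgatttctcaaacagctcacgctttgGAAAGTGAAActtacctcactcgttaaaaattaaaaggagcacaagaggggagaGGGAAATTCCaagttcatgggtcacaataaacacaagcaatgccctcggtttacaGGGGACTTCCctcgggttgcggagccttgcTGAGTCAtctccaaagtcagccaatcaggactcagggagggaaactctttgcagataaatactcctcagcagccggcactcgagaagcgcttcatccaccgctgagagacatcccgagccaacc
The capitals mark, in order, an ISRE core (GAAA and GAAA with any 2 bases between) 213 bases before the start, NF-kB forms (GGG and TTCC with any 3 bases between) at 159 and 104 bases, and an AP-1 motif at 74 bases. None of these matches overlaps another. The ISRE core stood in 3.44% and the NF-kB form in 5.56% of all windows. Cxcl1, which draws neutrophils through CXCR2, showed the same turn: -0.63 (interval -0.95 to -0.31) without HS replicate 1 and 0.06 with it, with 8.21, 10.14 and 10.37 in HS, 9.45, 9.88 and 9.56 in MC+HS, and 8.23, 8.35 and 8.10 in mock.

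Cytokines and other NF-kB targets were lower for 22 of 28 genes without HS replicate 1 (median -0.19), with the interval below 0 for 6 and above 0 for 0. With all arrays the median was -0.08 and 3 intervals lay below 0. Without HS replicate 3 as well 1 of 28 lay below 0, and without MC+HS replicate 3 it was 3. Acod1 encodes the enzyme of activated macrophages that makes itaconate. It read 8.13, 8.67 and 8.72 in HS, 7.89, 7.77 and 7.25 in MC+HS, and 4.66, 4.20 and 4.42 in mock. Every MC+HS array lay below every HS array, and Acod1 was 2.09-fold lower (95% interval 1.43 to 3.05, adjusted p = 0.347) without HS replicate 1, with a difference of -0.87 (interval -1.44 to -0.31) with it. Il6, a cytokine of the acute phase, read 7.35, 6.83 and 6.81 in HS, 6.08, 6.40 and 6.20 in MC+HS, and 4.18, 4.15 and 4.28 in mock. Here the groups again did not overlap and the difference was larger with HS replicate 1 (-0.77, interval -1.30 to -0.25) than without it (-0.60, interval -1.08 to -0.11). Il6 was dim on all 3 MC+HS and all 3 mock arrays. In its quintile of brightness, the second dimmest, the median difference was -0.097 with HS replicate 1 and 0.089 without it. Of 3 molecules that hold leukocytes to the vessel wall, Selp (P-selectin) differed by -0.56 without HS replicate 1 and -0.57 with it, with mock 1.95 below MC+HS. Its dimmer probe sets gave -0.28 and 0.22 without HS replicate 1. Icam1 differed by -0.58 (interval -1.01 to -0.15) and -0.30 (interval -0.93 to 0.32), and Vcam1 by -0.37 (interval -0.65 to -0.08) and 0.05. In the cell death list, Mlkl, the pore-forming effector of necroptosis, differed by -0.47 without HS replicate 1 and by -0.69 with it (interval -1.20 to -0.17), with both vector groups more than 2-fold above mock.

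Interferon-stimulated genes stood above mock in both vector groups. With all arrays 12 of 38 genes were called above mock in HS and 8 in MC+HS. Without HS replicate 1 these were 37 and 38, against 2.47% and 1.95% of all genes. In that fit the median differences from mock were 2.64 and 2.32. Between preparations 36 of 38 were lower in MC+HS, the median was -0.29 and the range -0.61 to 0.10. With the arrays scaled to one spread 24 of 38 were lower and the median was -0.16, with 0 intervals below 0, and without alignment of the medians it was -0.70, with 17 below 0. The interval lay below 0 for 3 genes, above 0 for 0 and inside plus or minus 1 for 19. The 3 became 15 without mock replicate 2 and 0 without HS replicate 3. Mock replicate 2 stood above the other mock arrays for these genes, at 0.83 about the mock mean against -0.40 and -0.42, and its spread enters each interval. In a fit of only the 5 vector arrays, 20 of 38 intervals lay below 0 (3.67% of all genes, with 3.25% above 0) and all 38 inside plus or minus 1 (87% of all genes). With all 9 arrays the median was 0.12 and 24 of 38 were higher, but it was -0.12 with quantile normalization, -0.20 with one spread and -0.16 without alignment, so the sign with all arrays depended on the scaling. The list mean of HS replicate 1 was 1.27 above mock against 2.59 and 2.84 for the other HS arrays and 2.34 to 2.48 for MC+HS. Samd9l, an antiviral restriction factor, read 8.57, 11.47 and 11.94 in HS, 11.25, 11.40 and 11.12 in MC+HS, and 8.84, 9.17 and 8.85 in mock. HS replicate 1 lay at the mock level, and the difference was -0.45 (interval -0.80 to -0.11) without it and 0.59 with it. Parp14 and Trim30a, both interferon-induced, had the other intervals below 0, at -0.47 and -0.37, against 0.03 and 0.07 with all arrays.

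The interferon-gamma-inducible GTPases, which attack the vacuoles of intracellular pathogens, and their regulators were lower for 13 of 14 genes without HS replicate 1 (median -0.34), with the interval below 0 for 2. These were Iigp1 and Irgm1. Iigp1 read 11.34, 11.81 and 12.20 in HS, 11.21, 11.45 and 11.27 in MC+HS, and 7.94, 8.95 and 8.20 in mock, a difference of -0.70 (interval -1.23 to -0.16) without HS replicate 1 and -0.48 (interval -1.18 to 0.22) with it. Irgm1 differed by -0.49 and -0.25. Without HS replicate 3 as well, 0 of 14 intervals lay below 0 and the median was -0.24, while without mock replicate 2 it was 7. Near-identical members of these families can share probes. For MHC class I presentation without HS replicate 1, 13 of 13 genes were called above mock in HS and 12 in MC+HS. The shares of all genes were 2.47% and 1.95%, and with all arrays the list counts were 4 and 3. The median difference between preparations was -0.22 without HS replicate 1, or 0.18 with all arrays. Erap1, the peptidase that trims peptides for class I, read 8.08, 8.08 and 8.35 in HS, 7.65, 7.82 and 7.64 in MC+HS, and 6.97, 7.24 and 6.92 in mock. It did not overlap between preparations, with -0.52 (interval -0.90 to -0.13) and, with all arrays, -0.47 (interval -0.85 to -0.09). The peptide transporter Tap1 differed by 0.12 (interval -0.45 to 0.70) and 0.43, and the heavy chain H2-D1, whose relatives can share its probes, by -0.05 (interval -0.72 to 0.62) and 0.05. MHC class II genes gave a median of -0.02 over 7 genes, or 0.07 with all arrays, with 0 called above mock in either vector group.

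Markers of incoming cells were mixed. In bulk tissue fewer cells of a type and less RNA per cell cannot be told apart. Neutrophil markers had a median of 0.0043 over 13 genes, or -0.18 with all arrays, and S100a8 and S100a9, the subunits of calprotectin, were among the lowest genes of the panel. S100a9 read 7.87, 8.92 and 8.53 in HS, 7.54, 8.0 and 7.66 in MC+HS, and 6.25, 6.28 and 6.25 in mock. It was 1.99-fold lower without HS replicate 1 (95% interval 1.48 to 2.68, adjusted p = 0.268), and its difference with all arrays was -0.71 (interval -1.30 to -0.11), with HS replicate 1 inside the MC+HS range. S100a8 read 7.84, 8.01 and 7.70 in HS, 6.74, 7.28 and 6.78 in MC+HS, and 5.58, 5.30 and 6.11 in mock, with -0.93 (interval -1.55 to -0.31) and -0.92, and no overlap between preparations. Of the other neutrophil genes, Csf3r, Mmp8, Cxcr2, Mmp9, Mpo, Ltf, Camp, Ngp, Trem1 and Il1r2 had intervals that included 0, and Elane lay at 0.78 (interval 0.14 to 1.43), or -0.20 with all arrays, and was dim on all 3 mock and all 3 MC+HS arrays. Elane read 7.60 on HS replicate 1 and 4.75 and 4.56 on the 2 other HS arrays.

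NK and cytotoxic genes were lower for 8 of 11 without HS replicate 1 (median -0.21; -0.37 with all arrays), and the interval lay below 0 for Gzmb, Gzma and Klrk1. Gzma and Gzmb encode granzymes, the proteases that cytotoxic cells pass into their targets. Gzmb read 8.29, 10.28 and 10.28 in HS, 8.51, 10.05 and 9.18 in MC+HS, and 4.90, 4.63 and 4.89 in mock. Its difference was -1.03 (interval -1.79 to -0.28) without HS replicate 1 and -0.37 (interval -1.61 to 0.86) with it. Gzma differed by -0.98 (interval -1.59 to -0.37) and -0.72. The activating receptor Klrk1 differed by -0.60 (interval -1.16 to -0.04) and -0.78. Prf1, the pore-forming partner of the granzymes, lay at 7.37 to 7.56 in MC+HS and 7.63 to 7.74 in mock and differed by 0.01 (interval -0.33 to 0.36), or 0.53 (interval -0.31 to 1.36) with all arrays. Leaving out HS replicate 3 as well brought the 3 intervals below 0 to 0, leaving out HS replicate 2 to 1 and leaving out MC+HS replicate 1 to 2. Of 14 monocyte genes 12 were lower without HS replicate 1 (median -0.17), with the interval below 0 for Chil3 (-0.52) and Vcan (-0.31). With all arrays 8 of 14 were lower (median -0.12), 0 intervals left 0, and Chil3 and Vcan lay at -0.17 and 0.26. Of 10 T cell genes 0 had an interval that left 0 in either fit, with medians of 0.07 without HS replicate 1 and -0.17 with it. However, 6 of the 10 were dim on all 9 arrays, which limits what can be seen. All 5 B cell genes were higher without HS replicate 1 (median 0.43), with Cd79a at 0.90 and Ms4a1 at 0.57. With all arrays 3 of 5 were higher (median 0.20), with Cd79a at -0.04 and Ms4a1 at 0.40. Cd79a was dim on all 9 arrays, where the difference moves upward with dimness, and read 6.79, 4.33 and 3.63 in HS, 5.31, 5.07 and 4.26 in MC+HS, and 4.64, 5.34 and 4.73 in mock.

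Without HS replicate 1, immediate early genes had the highest median of the lists with more than 5 measured genes. The B cell list, with 5 measured genes, had a higher median (0.43). In that fit 15 of 19 were higher in MC+HS, the median difference was 0.29, the interval lay above 0 for 8 and below 0 for 0, and MC+HS stood wholly above HS for 10 (11.5% of all genes). The median gene was 0.16 below mock in HS and 0.21 above it in MC+HS, and 0 of 19 were called against mock in either group. With all arrays the median was 0.56 and 5 intervals lay above 0, where the median of all genes was 0.156 and that of the brightest quintile of probe sets was 0.363. That all-array median was 0.17 with quantile normalization and 0.09 with the arrays scaled to one spread, where 9 of 19 were lower. The list mean was 0.40, 0.39 and 0.03 above mock in the MC+HS mice, and the HS mice ran from -0.75 to 0.03, so MC+HS replicate 3 lay level with the highest HS mouse. Without MC+HS replicate 3 the interval lay above 0 for 12 of 19, and without HS replicate 2 for 5. Without alignment of the array medians, which moved the median of all probe sets to -0.41, the list's median was -0.12.

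Npas4, a transcription factor switched on by neuronal calcium, read 8.50, 9.07 and 9.29 in HS, 10.24, 9.77 and 9.76 in MC+HS, and 9.94, 9.49 and 9.85 in mock. Every HS array lay below every MC+HS and mock array, though bright genes tended to be low on HS replicate 1. The difference was 0.74 (interval 0.35 to 1.12, adjusted p = 0.347) without HS replicate 1 and 0.97 (interval 0.39 to 1.54) with it. Nr4a1, an orphan nuclear receptor, read 11.11, 11.11 and 11.39 in HS, 12.09, 12.05 and 11.56 in MC+HS, and 11.85, 11.55 and 11.69 in mock. Its HS arrays were likewise the 3 lowest, with 0.64 (interval 0.28 to 1.0) and 0.69 (interval 0.13 to 1.26). Fos, a subunit of AP-1, read 9.81, 10.63 and 10.56 in HS, 11.47, 11.46 and 10.87 in MC+HS, and 11.13, 10.55 and 10.67 in mock, with 0.67 (interval 0.23 to 1.11) and 0.93. For Fos, HS replicates 2 and 3 lay within the mock range, and 2 of the 3 MC+HS arrays stood above every mock array. Egr2 lay at 0.72 (interval 0.19 to 1.26), Egr4 at 0.54 (interval 0.11 to 0.97) and Arc, the synaptic capsid protein, at 0.57. With all arrays these were 0.42, 0.31 and 0.56. Egr1, Nr4a2, Nr4a3 and Jun differed by -0.01, 0.01, 0.08 and 0.08, each with an interval inside plus or minus 1 that included 0. With all arrays these were 0.51, 0.13, 0.38 and 0.33.

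Dusp1 and Btg2 are feedback genes of this programme, a phosphatase of MAP kinases and an antiproliferative regulator. Dusp1 read 8.70, 11.28 and 11.40 in HS, 12.08, 12.19 and 11.66 in MC+HS, and 11.88, 11.76 and 11.66 in mock, with 0.64 (interval 0.31 to 0.96) without HS replicate 1 and 1.52 (interval 0.10 to 2.93) with it. Btg2 read 7.92, 9.80 and 9.78 in HS, 10.74, 10.55 and 10.10 in MC+HS, and 9.99, 9.77 and 9.84 in mock, with 0.68 (interval 0.32 to 1.04) and 1.30. HS replicate 1 was the lowest array for both by a wide margin. Of the 5 immediate early genes whose windows were searched (Fos, Npas4, Nr4a1, Dusp1 and Btg2), these are the members with a full CRE, the motif of the activity-driven factor CREB. Their windows lie at chr17:26508423-26508722 and chr1:134079106-134079405 of GRCm38.p6, both minus strand, from RefSeq.
Dusp1: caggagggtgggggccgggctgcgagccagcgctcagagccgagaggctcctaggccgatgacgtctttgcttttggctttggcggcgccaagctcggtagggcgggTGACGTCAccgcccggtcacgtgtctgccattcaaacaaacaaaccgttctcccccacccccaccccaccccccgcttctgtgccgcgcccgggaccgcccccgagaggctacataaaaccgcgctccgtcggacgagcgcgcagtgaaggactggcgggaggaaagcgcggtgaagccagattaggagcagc
Btg2: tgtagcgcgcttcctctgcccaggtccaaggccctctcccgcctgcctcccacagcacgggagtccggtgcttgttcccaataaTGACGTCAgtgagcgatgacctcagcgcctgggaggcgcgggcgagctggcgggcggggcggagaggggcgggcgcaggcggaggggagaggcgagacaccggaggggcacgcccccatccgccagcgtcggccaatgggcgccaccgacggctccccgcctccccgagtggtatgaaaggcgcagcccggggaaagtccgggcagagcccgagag
The capitals mark the CRE (TGACGTCA), 143 bases before the start of Dusp1 and 166 before that of Btg2. It stood in 1.79% of all windows. The windows of Fos, Npas4 and Nr4a1 held no match to the CRE, the CArG box or the other motifs, which says only that these letters are not in 300 bases.

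**Figure D4:**
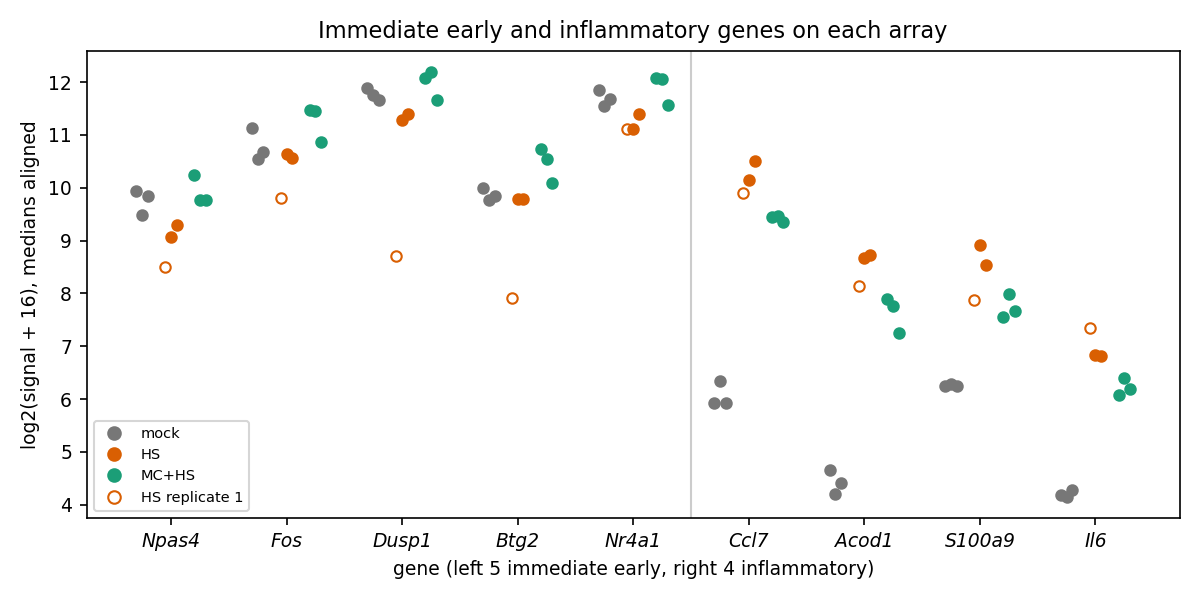
Level (log2 of signal + 16, medians aligned) of 5 immediate early genes (left) and 4 inflammatory genes (right) on each of the 9 arrays, HS replicate 1 as an open circle. The inflammatory genes stand above mock in both vector groups and lower in MC+HS than in HS. The exception is S100a9, where HS replicate 1 (7.87) lies inside the MC+HS range. The immediate early genes stand higher in MC+HS than in HS with mock between or beside them.

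Resident cells differed little once HS replicate 1 was left out. All 14 homeostatic microglia genes, all 17 striatal medium spiny neuron genes, all 18 pan-neuronal genes, all 15 oligodendrocyte genes and all 20 endothelial and pericyte genes had intervals inside plus or minus 1, with medians of -0.12, -0.11, -0.09, -0.13 and -0.08. With all arrays those medians were 0.09, 0.72, 0.26, 0.26 and 0.24, and 9, 5, 8, 7 and 15 intervals lay inside. Over all genes the share inside was 85.9% without HS replicate 1 and 49.8% with it. Intervals of bright probe sets are narrow, with a median half-width of 0.249 in the brightest quintile without HS replicate 1. Gpr34, a lysophospholipid receptor of microglia, fell against mock in both vector groups (-1.15 in HS, adjusted p = 0.0024, and -1.03 in MC+HS, adjusted p = 0.0027), and differed by 0.13 (interval -0.21 to 0.46) between them, or 0.23 with all arrays. P2ry12, the purinergic receptor that steers microglial processes, fell by 0.67 in HS and by 1.0 in MC+HS against mock, and read 8.59, 8.79 and 8.82 in HS, 8.58, 8.56 and 8.29 in MC+HS, and 9.35, 9.48 and 9.59 in mock. Between preparations it differed by -0.33 (interval -0.61 to -0.05), or -0.26 (interval -0.63 to 0.11) with all arrays. Drd1 and Ppp1r1b, markers of dopamine-responsive striatal neurons, differed by -0.36 and 0.17, or -0.02 and 0.93 with all arrays, with HS replicate 1 as the lowest array for both. Its level for Ppp1r1b was 9.51, against 11.53 to 12.26 on the other 8 arrays.

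Astrocyte identity genes were lower for 13 of 14 without HS replicate 1 (median -0.12), with the interval below 0 for Sox9 (-0.57), Gjb6 (-0.34) and Aqp4 (-0.29). The 3 became 6 without MC+HS replicate 1 and 1 without HS replicate 2 or 3. Sox9, a transcription factor of astrocytes, read 9.22, 9.80 and 9.64 in HS, 9.29, 9.42 and 8.73 in MC+HS, and 9.06, 8.90 and 8.82 in mock, so every HS array lay above every mock array, HS replicate 1 lay inside the MC+HS range, and 1 of the 3 MC+HS arrays was the lowest of all 9. With all arrays Sox9, Gjb6 and Aqp4 lay at -0.41, 0.78 and 0.39, the median of the list was 0.76 and its direction turned. The list's median was also positive, at 0.11, without HS replicate 1 when the arrays were scaled to one spread. Of 25 reactive astrocyte genes, which rise in injured brain, 19 were called above mock in HS and 18 in MC+HS without HS replicate 1. The shares of all genes were 2.47% and 1.95%, and with all arrays the list counts were 1 and 1. The median difference between preparations was -0.21 without HS replicate 1, or 0.20 with all arrays. Gfap, the intermediate filament of reactive astrocytes, differed by -0.19 (interval -0.79 to 0.42) and 0.56. Among 20 heat shock and unfolded protein response genes the interval lay below 0 for Hspa1b (-0.37), Hspa5 (-0.34), Herpud1 (-0.30) and Hspd1 (-0.27), the first 2 being chaperones of the cytosol and of the endoplasmic reticulum. With all arrays these lay at 0.14, 0.61, 0.18 and 1.14, the median of the list was 0.41 and 0 intervals lay below 0. In the fit without HS replicate 1 all 20 intervals lay inside plus or minus 1 (85.9% of all genes). When the arrays were scaled to one spread 0 of 20 lay below 0, and without HS replicate 3 it was 1. Ribosomal protein, respiratory chain and cholesterol synthesis genes gave medians of -0.08, -0.07 and -0.08 without HS replicate 1, and 0.48, 0.38 and 0.16 with all arrays. Without HS replicate 1 every interval of the 3 lists lay inside plus or minus 1 (85.9% of all genes).

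**Figure D5:**
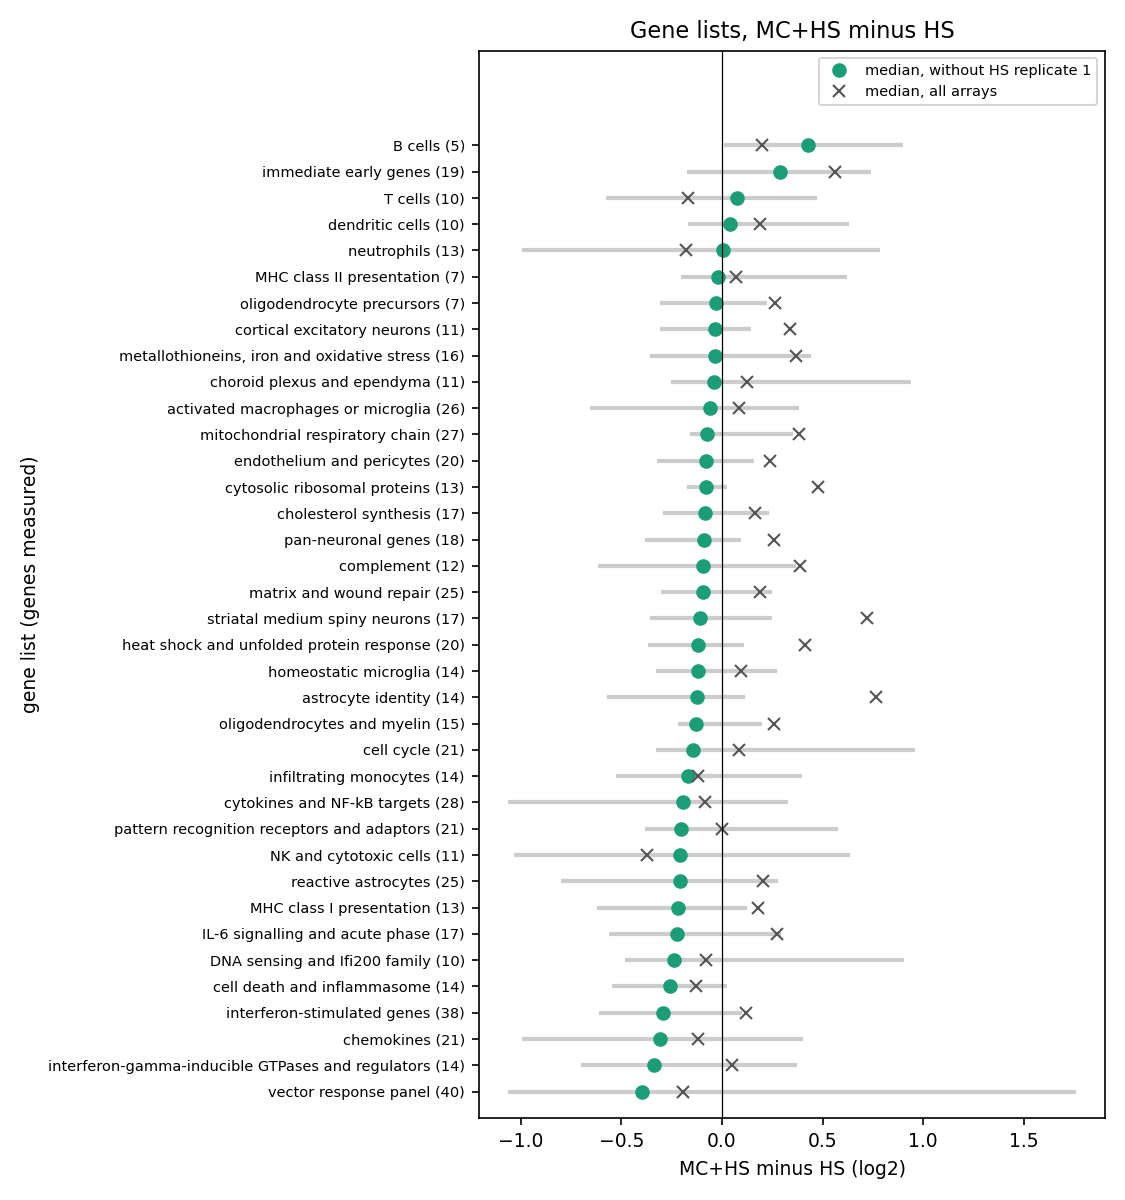
Median MC+HS minus HS difference (log2) of each gene list with at least 5 measured genes, without HS replicate 1 (filled circle, with the lowest and highest gene as a grey bar) and with all arrays (cross). Crosses of neuronal and astrocyte lists lie far to the right of their circles, by 0.83 for striatal medium spiny neurons, and immediate early genes lie to the right of 0 in both.

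Outside the lists, further genes were taken by the smallest p in each direction over the brightest probe set of each gene, so dimmer probe sets with a smaller p are passed over, and none of them was called. Clec2d, a ligand of an NK cell receptor, read 7.54, 9.44 and 9.92 in HS, 8.70, 7.90 and 7.85 in MC+HS, and 8.57, 8.40 and 8.72 in mock. Its difference was -1.53 (interval -2.07 to -0.99, adjusted p = 0.267), and HS replicate 1 lay on the far side, which brought it to -0.81 (interval -2.02 to 0.39). Ddo, which degrades D-aspartate, read 8.20, 9.04 and 8.80 in HS, 8.31, 7.93 and 7.86 in MC+HS, and 8.40, 8.57 and 8.28 in mock, with -0.89 (interval -1.25 to -0.52) and -0.65. Its dimmer probe sets gave -0.33, 0.10 and -0.00048 without HS replicate 1, and -0.49, -0.59 and -0.31 with all arrays. Herc4, a ubiquitin ligase, differed by -0.49 (interval -0.69 to -0.28) and -0.13. Its dimmer probe sets disagreed, with -0.41, 0.08 and 0.10 without HS replicate 1, and -0.58, 0.07 and 0.79 with all arrays. On the higher side, Dph7, an enzyme of diphthamide synthesis, read 7.82, 9.26 and 9.01 in HS, 9.76, 9.66 and 9.70 in MC+HS, and 9.62, 9.72 and 9.56 in mock, with 0.57 (interval 0.34 to 0.81) and 1.01 (interval 0.27 to 1.75). AY036118 read 9.44, 8.74 and 9.22 in HS, 9.63, 10.03 and 10.04 in MC+HS, and 9.88, 9.72 and 10.04 in mock, with 0.92 (interval 0.54 to 1.30) and 0.76. For both of these the HS arrays were the 3 lowest of the 9, though bright genes tended to be low on HS replicate 1. Fcmr lay at 1.64 (interval 0.98 to 2.31) without HS replicate 1 and at 0.62 (interval -1.03 to 2.28) with it. Fcmr was dim on all 3 mock arrays, all 3 MC+HS arrays and HS replicates 2 and 3 (4.39 and 4.12). Its highest reading was on HS replicate 1 (7.32). Il21r, a cytokine receptor, lay at -1.10 (interval -1.72 to -0.48), or -1.26 with all arrays, and was dim on all 9.

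Mapk6 and Pitpnb each had a dimmer probe set more than 2-fold lower in MC+HS that did not pass the threshold, and are named after their values were seen. For Mapk6, an atypical MAP kinase, that probe set read 6.94, 8.12 and 7.94 in HS, 5.70, 5.68 and 5.82 in MC+HS, and 7.22, 7.16 and 6.14 in mock. The groups did not overlap, and the difference was -2.29 (interval -2.97 to -1.62, limma adjusted p = 0.231) without HS replicate 1 and -1.93 (interval -2.77 to -1.10) with it. All 3 MC+HS readings were dim. The brightest probe set of Mapk6 gave -0.31 and 0.64, so the probe sets of this gene disagreed. For Pitpnb, a phosphatidylinositol transfer protein, the probe set read 8.36, 8.25 and 7.70 in HS, 6.84, 6.0 and 6.15 in MC+HS, and 7.79, 7.77 and 7.91 in mock, with -1.64 (adjusted p = 0.267) and -1.77 (interval -2.36 to -1.18). Here too the groups did not overlap, and MC+HS fell by 1.49 against mock (adjusted p = 0.0080) without HS replicate 1, while the brightest probe set gave 0.01 without HS replicate 1 and 0.96 with it.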

How the data were processed

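The authors deposited 1 intensity per probe set and array, and the submitters' processing notes name GCOS 1.4.0.036. Its summarisation and scaling settings are not given in the labels. From these values log2(signal + 16) was computed, 64 control probe sets were left out, and array medians were aligned, with shifts of -0.12 to 0.66 (HS replicate 3). No filter on dim probe sets was used, and a probe set is called dim on an array where it lies below the 40th percentile of that array. Folds are on the log2(signal + 16) scale, which understates changes of dim genes.

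The test was limma 3.58.1 under R 4.3.3 (lmFit and eBayes with an intensity trend, two-sided, Benjamini-Hochberg over 45037 probe sets, called under 0.05), in 1 fit of the 3 groups with all 9 arrays and 1 without HS replicate 1 (8 arrays). The fits were first tested on simulated data. With 3 mice or fewer per group the number of arrays limits the precision. Contrasts with mock share arrays with the comparison of preparations, so their values are only set side by side.

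Of the probe sets, 34945 had 1 gene symbol, 932 several and 9160 none, and 34741 were matched by Entrez identifier to RefSeq genes of GRCm38.p6. The brightest probe set stood for a gene, which gave 18193 genes. The build behind the array's design is not stated in the labels, so coordinates are those of the RefSeq promoter table only. The comparison, its 37 gene lists (671 entries, 599 measured), the panel and the leaving out of HS replicate 1 were chosen with earlier results of these data known. Named genes are those called, up to 12 in each direction, or the 6 with the smallest p where fewer than 4 were called, for each list at most 4 members by smallest p, and the panel, with other list members given to show how a list varied. Motifs were searched on both strands. Alternatives were pseudocounts of 1 and 64, filters at the 40th and 60th percentile, quantile normalization, arrays scaled to one spread, no alignment, no trend, array quality weights, a robust prior, a fit of the vector arrays alone, a replicate block and each array left out. Scaling the signals to one median before the pseudocount was added after seeing the data.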

Additional observations from a re-analysis of the deposited data

Results flagged for a closer look

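Arap2 stood out because the preparations' responses against mock differed by a test: the difference was 1.76 without HS replicate 1 (limma adjusted p = 0.000622), with HS below mock and MC+HS at the mock level. C730034F03Rik and Il31ra stood out because every HS array lay on one side of all mock arrays and every MC+HS array on the other. For neither was the difference past the threshold or tested in another way. This ordering was looked for only among the called genes, those with the smallest p and the panel. Both genes were thus picked from these same data, and the share of all genes with this ordering was not counted. C730034F03Rik read 5.83, 5.36 and 5.83 in HS, 4.49, 4.17 and 4.35 in MC+HS, and 4.75, 4.63 and 4.80 in mock, a difference of -1.34 with all arrays. Il31ra, a subunit of the interleukin-31 receptor, read 4.79, 4.99 and 4.59 in HS, 5.78, 6.18 and 5.71 in MC+HS, and 5.69, 5.62 and 5.23 in mock, a difference of 1.10. Both genes were dim on all 9 arrays in these probe sets. The other Il31ra probe set, also dim, read 6.49, 4.81 and 4.04 in HS, 5.44, 5.41 and 5.73 in MC+HS, and 5.99, 5.21 and 4.95 in mock. There the groups overlapped, and the difference was 0.41 (interval -0.86 to 1.69) with all arrays and 1.10 (interval 0.34 to 1.86) without HS replicate 1.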

How the results depend on the processing

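With all arrays, array quality weights gave 24 probe sets higher and 28 lower, with Arap2 at 1.76 (adjusted p = 3.06e-05). The other alternatives with all arrays gave 0 in each direction, and leaving out each array in turn gave 0 to 1 higher and 0 lower, with Arap2 at 1.43 to 1.76. Arap2 was 0.935 (unadjusted p = 0.146 by limma) with the arrays scaled to one spread and 1.16 with quantile normalization. Arap2 was called with all arrays only under array quality weights and, among the arrays left out, without HS replicate 1.

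Without HS replicate 1, a pseudocount of 64 gave 2 higher and 1 lower, no alignment of medians 0 higher and 2 lower, no intensity trend 0 higher and 0 lower with 4094 at an unadjusted p under 0.05, and only the 5 arrays compared 1 higher and 1 lower. Arap2 was no longer past the threshold without alignment (1.35, adjusted p = 0.110) and without the trend (1.76, adjusted p = 0.0794), and the cause was not tested. Leaving out 1 more array gave 1 higher and 0 to 1 lower: without MC+HS replicate 1 Clec2d was also called, without MC+HS replicate 3 Gtpbp1 and without mock replicate 3 Mapk6. Mapk6 was also the lower call with a pseudocount of 64 and with only the arrays compared, and Mapk6 and Pitpnb were those without alignment; Gtpbp1, Mapk6, Pitpnb and Hspa9 are named after their values were seen.

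Samples with the same replicate number in HS and MC+HS had correlations of -0.15 to 0.016, under 0.1, and the main fits did not pair the mice. These correlations cannot exclude pairing, because they include HS replicate 1, which was unlike the other arrays. Against mock, some pairs with the same number and some with different numbers lay above 0.1. With the replicate block 0 probe sets were called with all arrays and 2 higher and 0 lower without HS replicate 1 (Arap2 and Hspa9).

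Of the list medians without HS replicate 1, 542 of the alternative values moved by less than the replicate spread and 66 did not. With all arrays these were 490 and 156. The rule did not look at direction. By it 0 of the alternative medians of interferon-stimulated genes moved with all arrays, though they ran from -0.29 to 0.44. The numbers of arrays and the brightness of a probe set limit what can be seen: the median half-width of an interval was 0.650 in the dimmest quintile and 0.249 in the brightest.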

Other observations

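Without HS replicate 1 the median over all genes was -0.020. Complement genes had a median of -0.09, pattern recognition receptors and adaptors -0.20 (18 of 21 lower), cell cycle genes -0.15 (17 of 21 lower), matrix and wound repair genes -0.09 and choroid plexus and ependymal genes -0.04. With all arrays these medians were 0.39, 0.0020, 0.08, 0.19 and 0.12, and that over all genes 0.156. Ttr, the transthyretin of the choroid plexus, read 13.52, 13.56 and 9.31 in mock and 12.50 to 13.20 in MC+HS, and its interval ran from -2.09 to 2.31, or from -1.66 to 3.13 with all arrays. Samhd1, a restriction factor that depletes nucleotides, differed by -0.35 (interval -0.75 to 0.05), or -0.24 with all arrays. Cgas, the sensor of cytosolic DNA, read 8.21, 8.30 and 8.25 in HS, 8.07, 8.08 and 7.99 in MC+HS, and 7.47, 7.65 and 7.72 in mock, a difference of -0.22 (interval -0.53 to 0.08), or -0.20 with all arrays. Saa3, an acute phase protein, lay on the other side, at 11.51 to 11.77 in MC+HS and 8.88, 11.38 and 11.47 in HS, a difference of 0.18 (interval -0.55 to 0.91), or 1.03 (interval -0.45 to 2.51) with all arrays.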
